A study of Homo sapiens with 12 samples.

Results

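The 41 genes described here encode enzymes of glycolysis and the pentose phosphate pathway with their regulators and transporters, or 2 alpha subunits of the hypoxia-inducible factors. The rest are targets of these factors outside glycolysis. Each expression table holds 48114 genes. The members were matched by gene symbol, and all 41 had a single row in both tables. RNA was sequenced from PANC-1, a pancreatic ductal adenocarcinoma (PDAC) cell line that the study uses as basal-like, which had been treated for 48 h with siRNA directed at QKI (siQKI) or RBFOX2 (siRBFOX2), each at 40 nM, or with control siRNA (siCtrl), whose dose the labels do not give. QKI and RBFOX2 are RNA-binding proteins that regulate alternative splicing. HPAF-II, a PDAC line that the study uses as classical, received siCtrl for 48 h, and each of the 4 groups had 3 libraries, which the submitters describe as biological replicates. All cultures grew in the same medium in a humidified CO2 incubator, no oxygen level was named, and no group was labelled as hypoxic. Each group is a single cell line, so a difference between the lines cannot be told apart from any other difference between the tumours they came from.

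Glycolysis converts glucose to pyruvate. Glucose enters through GLUT transporters, hexokinases trap it as glucose 6-phosphate, phosphofructokinase commits it to the pathway, and the later reactions recover ATP. Tumour cells often reduce much of the pyruvate to lactate with lactate dehydrogenase and export it through monocarboxylate transporters, while pyruvate dehydrogenase kinases keep pyruvate out of the mitochondria. The hypoxia-inducible factors HIF-1 alpha (HIF1A) and HIF-2 alpha (EPAS1) are hydroxylated and degraded when oxygen is plentiful. When they accumulate they pair with ARNT and bind core letters such as ACGTG upstream of many glycolytic genes and of genes for angiogenesis, pH control and mitophagy. The protein, rather than the mRNA, of HIF1A is the main point of oxygen control, and mRNA alone was measured here.

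Promoter sequence was available in RefSeq (GRCh38.p14) for 36 of the 41 members, and not for SLC2A3, PFKFB2, SLC16A1, VEGFA and NDRG1. The 250 bases upstream of each annotated start were searched on both strands for ACGTG, which on the other strand reads CACGT and which also lies within the E-box CACGTG that other factors bind. At least 1 match lay in a window of 19 of the 36 members, and 22 of 67 member windows (32.8%) held a match, against 18.5% of all 35116 windows of the same length and 6.34% for the E-box. A match describes letters in the window and not a bound site. The related letters GCGTG matched 32.2% of all windows and are neither marked nor counted below, so a window without ACGTG can hold GCGTG. The windows of 4 members are shown because these genes carried differences described below: HK2 and ANKRD37 fell in a knockdown, ADM rose in both, and BNIP3 was listed at 0 throughout HPAF-II. Capitals mark ACGTG or CACGT, and where they overlap the E-box, the whole of CACGTG.
HK2 (chr2:74833877-74834126, plus strand): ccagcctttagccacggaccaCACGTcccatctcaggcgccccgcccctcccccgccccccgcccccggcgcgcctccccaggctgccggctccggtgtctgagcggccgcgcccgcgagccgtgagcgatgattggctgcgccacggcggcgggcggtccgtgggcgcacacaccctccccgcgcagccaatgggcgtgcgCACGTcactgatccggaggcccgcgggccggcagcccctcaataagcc
ANKRD37 (chr4:185396591-185396840, plus strand): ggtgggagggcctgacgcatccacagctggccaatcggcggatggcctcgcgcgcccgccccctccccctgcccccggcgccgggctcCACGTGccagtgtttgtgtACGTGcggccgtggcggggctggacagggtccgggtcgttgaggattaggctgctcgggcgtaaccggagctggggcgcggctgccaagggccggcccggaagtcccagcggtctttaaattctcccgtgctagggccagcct
BNIP3 (chr10:131981924-131982173, minus strand): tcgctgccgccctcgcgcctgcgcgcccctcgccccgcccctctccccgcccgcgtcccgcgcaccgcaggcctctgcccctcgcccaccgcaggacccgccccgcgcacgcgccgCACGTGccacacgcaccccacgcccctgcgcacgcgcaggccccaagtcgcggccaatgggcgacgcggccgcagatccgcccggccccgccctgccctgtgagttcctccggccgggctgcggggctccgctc
ADM (chr11:10304823-10305072, plus strand): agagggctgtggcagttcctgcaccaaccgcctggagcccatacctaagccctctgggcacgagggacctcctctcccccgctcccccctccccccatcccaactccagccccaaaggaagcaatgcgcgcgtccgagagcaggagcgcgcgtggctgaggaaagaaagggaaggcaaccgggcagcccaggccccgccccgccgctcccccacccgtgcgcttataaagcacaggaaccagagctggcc
The HK2 window, 1 of 2 windows for that gene, held 2 separate matches, the ANKRD37 window an E-box followed by another match, and the BNIP3 window an E-box. The ADM window held no ACGTG or CACGT, although it held GCGTG.

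The expression values are normalized counts, that is counts per gene scaled by the authors with size factors from DESeq2, and fold changes are on the log2(normalized count + 1) scale. QKI fell by 2.34 on the log2 scale in siQKI cells and RBFOX2 fell by 2.89 in siRBFOX2 cells. RBFOX2 itself was also lower in siQKI cells, by a log2 fold change of -0.29 (adjusted p = 0.0207 from limma). Across the 9 PANC-1 libraries, 22544 genes were tested with limma, and a gene was called where its Benjamini-Hochberg adjusted p was under 0.05. The summed level of 7 epithelial markers, rescaled to a library total of 1000000, was 680.8 to 710 in PANC-1 siCtrl and 4066 to 4199 in HPAF-II libraries, while 5 mesenchymal markers summed to 5377 to 5568 and to 2.44 to 19.0. In siQKI libraries these sums were 693 to 753.6 and 5138 to 5293, and in siRBFOX2 libraries 586.2 to 623.9 and 5492 to 5542, so the mesenchymal sum in siQKI and the epithelial sum in siRBFOX2 lay below every siCtrl library. Of 4 markers of leukocytes, endothelium and fibroblasts (PTPRC, PECAM1, COL1A1 and PDGFRB), PTPRC and PECAM1 were at 0 in every HPAF-II library, and the 4, of which COL1A1 made up most, summed to 11.7 to 13.5 in siCtrl, 25.2 to 28.7 in siQKI, 15.0 to 22.6 in siRBFOX2 and 17.8 to 20.2 in HPAF-II libraries. The part of these differences in the results below was not tested.

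In PANC-1 siCtrl cells 4 lower glycolytic enzymes had the highest levels of the members. Per kilobase of exon and rescaled to a library total of 1000000, GAPDH had the highest level (1764 ± 25.6, SD, n = 3), followed by ENO1 (1224 ± 37.4), PGAM1 (793 ± 17.1), PKM (511 ± 6.85) and ALDOA (444 ± 13.5). The libraries of neighbours in this order did not overlap. LDHA followed at 286 ± 0.91, with LDHB (238 ± 2.33) and TPI1 (236 ± 5.92) overlapping each other. PGK1, the lower enzyme that makes ATP after GAPDH, stood at 125 ± 2.80. The exon length of PGK1 came from a gene model of 218558 bases, against 25050 in its expression row, so it may include exons outside the row. Before division by length, PGK1 (622 rescaled counts) stood above TPI1 (514) and LDHB (378). The entry steps were far lower, with HK1 at 22.7 ± 0.40, SLC2A1 at 12.1 ± 0.62 and HK2 at 2.40 ± 0.12. FBP1, the gluconeogenic phosphatase that opposes phosphofructokinase, was listed at 0 in all 3 siCtrl libraries, and PKLR, the liver and red cell pyruvate kinase, averaged under 10 normalized counts and was not tested. The 41 members made up 1.64% to 1.67% of the summed values under siCtrl, 1.72% to 1.75% under siQKI and 1.67% to 1.71% under siRBFOX2. GAPDH by itself made up 0.386% to 0.396%, 0.418% to 0.431% and 0.418% to 0.440%. The row of GAPDH spans 206371 bases in the files and overlaps 8 other coding genes, and that of SLC16A3 spans 296665 bases with 13 other coding genes, so both levels may hold reads of neighbours.

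QKI depletion was followed by changes in both directions. Of 40 members tested, 22 were called in siQKI cells, 6 higher and 16 lower, or 55% of the members against a background of 33.0% of all genes tested (14.9% higher and 18.1% lower). In siRBFOX2 cells 16 were called, 3 higher and 13 lower, or 40% against 26.5% (12.0% higher and 14.5% lower). The balance of directions depended on scaling. With libraries scaled to the upper quartile of their values above 0, an alternative chosen after seeing the data, 11 members were higher and 8 lower in siQKI cells, beside 4454 and 2654 of all genes, and 5 were higher and 7 lower in siRBFOX2 cells, beside 3100 and 2417. The added rises were those of ALDOA, GAPDH, PGK1, LDHA and TKT in siQKI cells and of GPI and TKT in siRBFOX2 cells. Most changes were small. Only SLC2A3, HK2, NDRG1, ENO3 and EGLN3 passed 1.5-fold in siQKI cells (background 9.03%), and ANKRD37 in siRBFOX2 cells (5.71%). The libraries of the groups compared did not overlap in 30 members (75%) in siQKI and 18 (45%) in siRBFOX2 cells, against 44.7% and 37.9% of all genes. Most members had a smaller standard error than the median of 0.14 over all genes tested. A small change is more readily called with a smaller error. The part of this in the shares here and below was not tested. The median log2 fold change was -0.07 over the members in both knockdowns, against 0.03 and 0.01 over all genes tested. Both knockdowns were compared with the same siCtrl libraries. Side by side, 9 members were called lower in both, ADM was called higher in both, VEGFA, SLC16A3 and TPI1 were called in opposite directions, and 15 were called in neither. The same joint counts over all genes are not given here, so these counts cannot be set against a background. Of the 19 members with ACGTG or CACGT in a promoter window, 1 was not tested. Of the rest, 3 were called higher and 6 lower in siQKI cells and 0 and 6 in siRBFOX2 cells. Of the 17 without a match, the counts were 3 and 5 and then 2 and 6, shares to be read beside the same backgrounds.

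**Figure D1:**
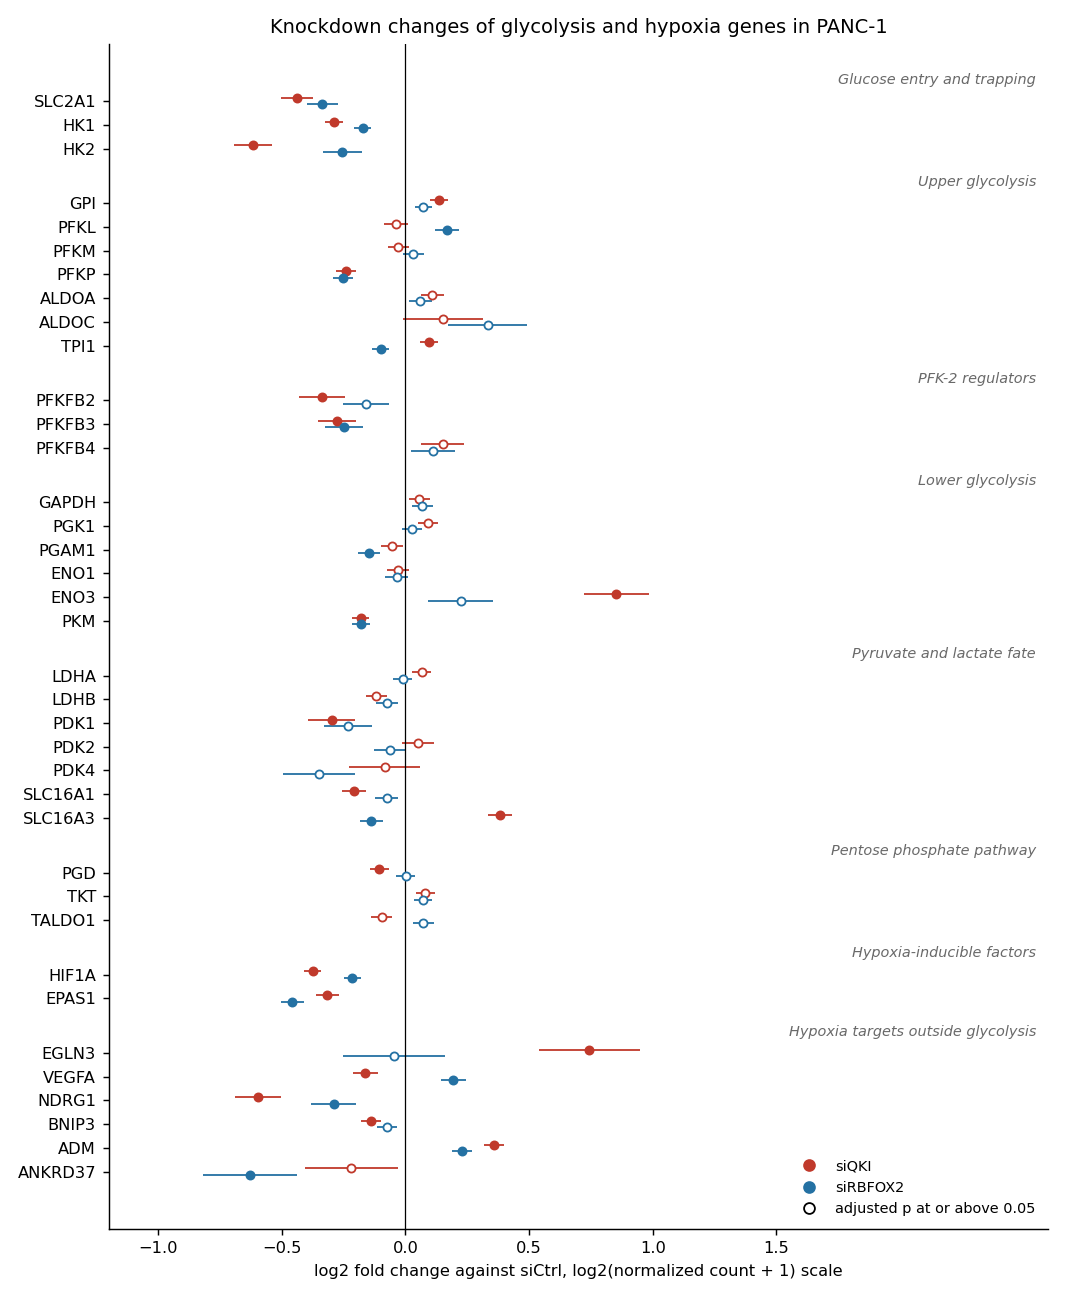
Log2 fold change (horizontal axis) against siCtrl of each member in PANC-1 cells, by role, for siQKI (red) and siRBFOX2 (blue), with bars for the standard error and filled points for an adjusted p under 0.05 (limma, 3 libraries per group). SLC2A3, FBP1, CA9 and PKLR, with few counts, are left out. The points of glucose entry and of the hypoxia-inducible factors lie to the left of 0 in both knockdowns, while ENO3 (0.85) and EGLN3 (0.74) stand to the right in siQKI cells.

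Of the 4 members of glucose entry and trapping, all were called lower in siQKI cells and 3 in siRBFOX2 cells. The backgrounds called lower were 18.1% and 14.5% of all genes. In siRBFOX2 cells SLC2A3 had -1.04 (SE 0.92, adjusted p = 0.469 from limma). HK2, the inducible hexokinase that binds mitochondria, had 4616, 4913 and 5172 normalized counts in the siCtrl libraries, 2853, 3428 and 3324 in the siQKI libraries and 3946, 4009 and 4363 in the siRBFOX2 libraries. The 3 groups did not overlap, with siQKI lowest. The log2 fold change was -0.62 (SE 0.08, adjusted p = 1.99e-05 from limma) in siQKI and -0.26 (SE 0.08, adjusted p = 0.0241) in siRBFOX2 cells, and siQKI was lower than siRBFOX2 by -0.36 (SE 0.08, adjusted p = 0.00337). The siRBFOX2 call of HK2 was lost without siCtrl replicate 2 or 3 or siRBFOX2 replicate 1 or 2, and its adjusted p ran up to 0.148 over all alternatives.

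HK1, the constitutive hexokinase, fell from 36489 ± 478 normalized counts (SD, n = 3) in siCtrl to 29868 ± 267 in siQKI and 32365 ± 514 in siRBFOX2 cells, by 0.29 and 0.17 on the log2 scale (adjusted p = 1.50e-05 and 0.00192 from limma). SLC2A1, which encodes the glucose transporter GLUT1, fell from 16611 ± 965 to 12250 ± 341 and 13184 ± 1208 normalized counts, by 0.44 and 0.34 on the log2 scale (adjusted p = 6.85e-05 and 0.00102 from limma). These 4 calls were kept in each of 18 alternative settings, which change the scaling, filter, model or libraries and not the fold required. The difference between the knockdowns was -0.10 (SE 0.06, adjusted p = 0.299) for SLC2A1 and did not pass the threshold.

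SLC2A3, which encodes the neuronal-type transporter GLUT3, was near the lower limit of the data, with 72.8, 33.0 and 96.6 normalized counts in siCtrl, 0, 2.62 and 9.44 in siQKI and 21.0, 31.0 and 38.9 in siRBFOX2 libraries. The siQKI libraries lay below all others. The log2 fold change of -4.22 (SE 0.92, adjusted p = 0.00229 from limma) in siQKI cells depends on the pseudocount and ran from -5.49 to -2.42 over the alternatives. SLC2A3 has a close paralogue, SLC2A14, and reads of the pair may not have been separated.

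Upper glycolysis moved in no common direction, with 2 members higher and 1 lower in siQKI and 1 higher and 2 lower in siRBFOX2 cells, of 8. That was 37.5% called in each, against 33.0% and 26.5% of all genes. The phosphofructokinase genes differed among themselves. PFKP, the platelet-type subunit and the highest of the 3 in PANC-1, fell from 148984 ± 5648 normalized counts to 126092 ± 1107 in siQKI and 125095 ± 4632 in siRBFOX2 cells (log2 fold changes -0.24 and -0.25, adjusted p = 2.06e-04 and 2.16e-04 from limma). PFKL, the liver-type subunit, rose in siRBFOX2 cells by 0.17 (adjusted p = 0.0164) and had -0.04 (adjusted p = 0.605) in siQKI cells, and the knockdowns differed by -0.21 (adjusted p = 0.00560). The PFKL rise was lost without siCtrl replicate 3 or siRBFOX2 replicate 1 or 2 (adjusted p up to 0.0823 over all alternatives). PFKM, the muscle-type subunit, had log2 fold changes of -0.03 and 0.03, and neither passed. Per kilobase, PFKP stood at 6.46 to 7.36 times PFKL in siCtrl libraries, 5.79 to 6.12 in siQKI and 4.76 to 5.50 in siRBFOX2 libraries, ranges that did not overlap.

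GPI, the isomerase before phosphofructokinase, rose in siQKI cells by 0.14 on the log2 scale (adjusted p = 0.00756). TPI1, which interconverts the triose phosphates, was called higher in siQKI (0.10, adjusted p = 0.0499) and lower in siRBFOX2 cells (-0.10, adjusted p = 0.0496), at the edge of the threshold. Those 2 calls were kept in 9 and 3 of 18 alternatives and were lost without most single libraries, with adjusted p up to 0.165 and 0.335 over all alternatives, whereas the difference between the knockdowns (0.20, SE 0.04, adjusted p = 8.83e-04 from limma) was kept in all 18. The aldolases ALDOA and ALDOC were not called in either knockdown. FBP1 was above 0 in a single siQKI library (45.6) and a single siRBFOX2 library (69.4) and was not called. Among the PFK-2 enzymes, which make and remove the phosphofructokinase activator fructose 2,6-bisphosphate, PFKFB3 fell in both knockdowns (-0.28 and -0.25, adjusted p = 0.0116 and 0.0262) and PFKFB2 in siQKI cells (-0.34, adjusted p = 0.00996), while PFKFB4 had 0.15 and 0.11 and was not called. These 3 calls each depended on single libraries, for PFKFB2 siCtrl replicate 1, for PFKFB3 in siQKI cells siCtrl replicate 3 or siQKI replicate 3, and for PFKFB3 in siRBFOX2 cells siCtrl replicate 2 or 3 or siRBFOX2 replicate 1 or 2. Their adjusted p-values ran up to 0.111, 0.137 and 0.221 over all alternatives.

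The abundant lower enzymes changed little. GAPDH had log2 fold changes of 0.06 (SE 0.04) and 0.07 (SE 0.04) in siQKI and siRBFOX2 cells, PGK1 had 0.09 (SE 0.04) and 0.03 (SE 0.04), and ENO1 had -0.03 (SE 0.05) and -0.04 (SE 0.05), and none passed the threshold. PKM, the gene of pyruvate kinase M1/2, fell by 0.18 on the log2 scale in both, from 581862 ± 14127 to 512926 ± 5795 and 513768 ± 5090 normalized counts (adjusted p = 8.39e-04 and 0.00136 from limma). The counts are per gene and do not separate its splice forms. The siQKI call of PKM was lost with the upper quartile of values above 0 (-0.0988, adjusted p = 0.0752). PGAM1 fell in siRBFOX2 cells by 0.15 (adjusted p = 0.0239), a call lost without siCtrl replicate 2 or siRBFOX2 replicate 2 (adjusted p up to 0.218 over all alternatives). Several of these genes have processed pseudogenes, and the sources used here do not state how shared reads were counted.

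ENO3, the muscle-type enolase, was the only one of the 6 tested lower enzymes called higher in siQKI cells, although GAPDH and PGK1 joined it with the upper quartile of values above 0. It had 697, 597 and 656 normalized counts in siCtrl libraries, 1311, 1019 and 1205 in siQKI libraries and 769.8, 814.5 and 694 in siRBFOX2 libraries. All siQKI libraries lay above all others, and siRBFOX2 overlapped siCtrl. The log2 fold change was 0.85 (SE 0.13, adjusted p = 1.27e-04 from limma) in siQKI and 0.22 (SE 0.13, adjusted p = 0.247) in siRBFOX2 cells. The knockdowns differed by 0.63 (SE 0.13, adjusted p = 0.00274), and both the siQKI call and this difference were kept in all 18 alternatives. At 1.19 ± 0.11 per kilobase in siCtrl cells, ENO3 was a minor transcript beside ENO1.

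**Figure D2:**
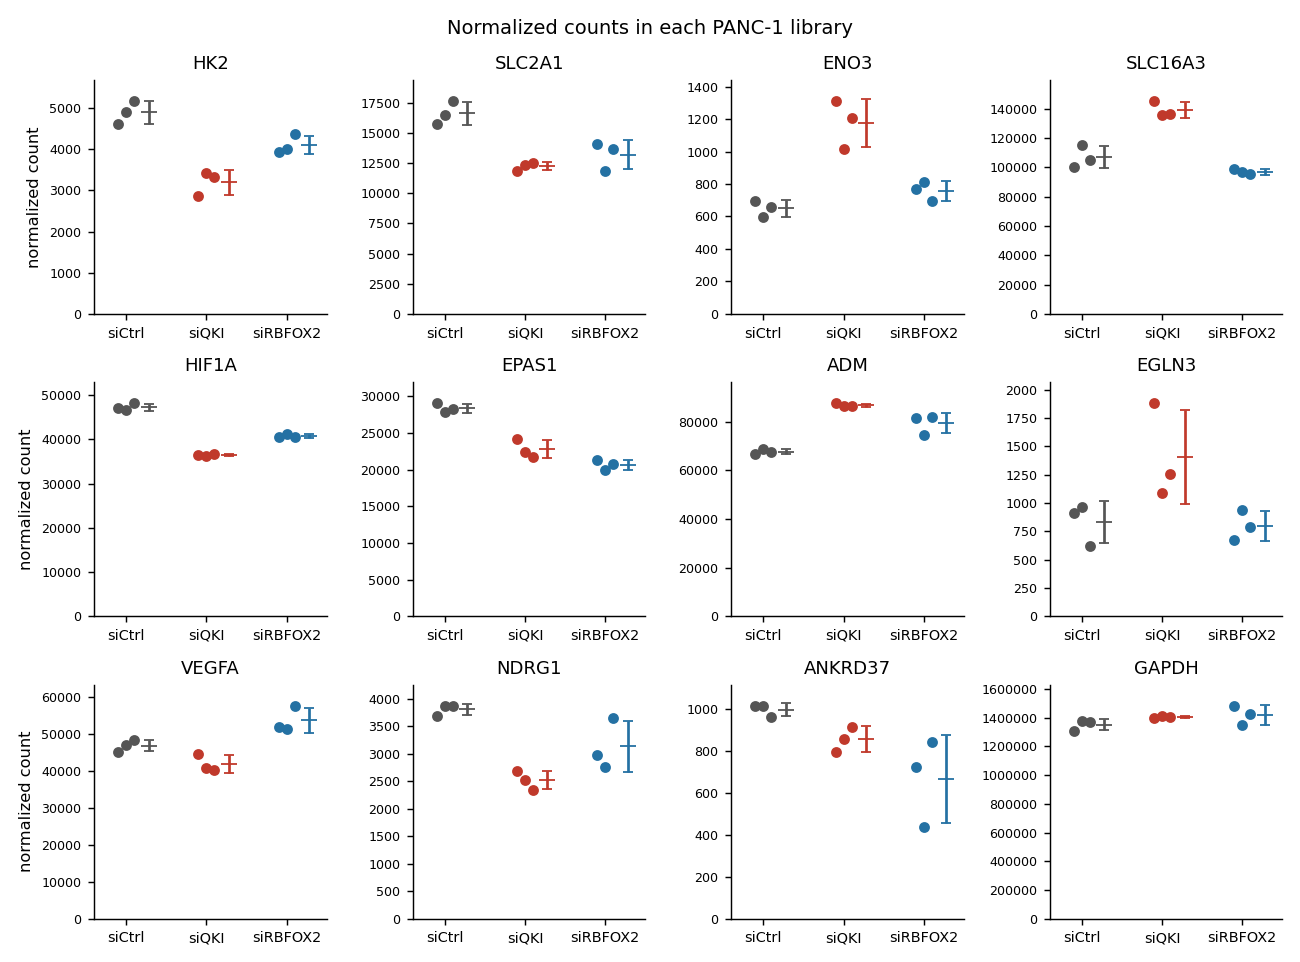
Normalized counts (vertical axis, starting at 0) of 12 members in each of the 9 PANC-1 libraries, with the mean and SD of each group beside the points (n = 3). HK2, SLC2A1, HIF1A and EPAS1 lie lower in both knockdowns and ADM higher, ENO3 and SLC16A3 lie highest in siQKI, and siQKI replicate 1 of EGLN3 (1879) stands well above the other siQKI libraries.

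The lactate transporters moved apart in siQKI cells. SLC16A3, which encodes the lactate exporter MCT4, had 100307, 114964 and 104952 normalized counts in siCtrl libraries, 145222, 135418 and 136226 in siQKI libraries and 98935, 96460 and 95314 in siRBFOX2 libraries. The siQKI libraries lay above all others and the siRBFOX2 libraries just below all siCtrl libraries. It rose by 0.38 (SE 0.05, adjusted p = 1.67e-05 from limma) in siQKI cells, was called lower by -0.14 (SE 0.05, adjusted p = 0.0439) in siRBFOX2 cells, and differed between the knockdowns by 0.52 (SE 0.05, adjusted p = 1.86e-06). The siRBFOX2 call was kept in 6 of 18 alternatives (adjusted p up to 0.258 over all alternatives) and was lost without any of 7 single libraries. SLC16A1, which encodes the bidirectional transporter MCT1, fell in siQKI cells from 8775 ± 253 to 7591 ± 92.0 normalized counts (-0.21, adjusted p = 0.00295), a call lost with the upper quartile of values above 0 (-0.13, adjusted p = 0.0836). The per-kilobase ratio of SLC16A3 to SLC16A1 was 10.6 to 11.7 in siCtrl, 16.0 to 17.3 in siQKI and 10.2 to 10.9 in siRBFOX2 libraries. The ratio was thus higher in every siQKI library than in any other PANC-1 library. Because the SLC16A3 row overlaps 13 other coding genes, its changes and ratios may hold reads of neighbours.

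The lactate dehydrogenases were not called, except that LDHA was called higher in siQKI cells with the upper quartile of values above 0. LDHA, which favours lactate formation, had log2 fold changes of 0.07 (SE 0.04, adjusted p = 0.222) and -0.01 (SE 0.04, adjusted p = 0.866), and LDHB, which favours pyruvate formation, had -0.12 (SE 0.04, adjusted p = 0.0549) and -0.07 (SE 0.04, adjusted p = 0.263). Within libraries, LDHB stood at 0.825 to 0.845 of LDHA per kilobase in siCtrl, 0.713 to 0.753 in siQKI and 0.781 to 0.810 in siRBFOX2 libraries, so the ratio was lower in all siQKI libraries than in all siCtrl libraries. PDK1, a pyruvate dehydrogenase kinase, fell in siQKI cells (-0.30, SE 0.10, adjusted p = 0.0253), a call lost without siCtrl replicate 1 or 3 or siQKI replicate 1 or 2 (adjusted p up to 0.144 over all alternatives). PDK2 and PDK4 were not called. In the pentose phosphate pathway, which branches off glucose 6-phosphate to make NADPH and ribose, PGD fell by 0.11 in siQKI cells (adjusted p = 0.0443), a call kept in 8 of 18 alternatives and lost without siCtrl replicate 1 or 3 or any siQKI library (adjusted p up to 0.748 over all alternatives). TKT and TALDO1 were not called against siCtrl, and TALDO1 was lower in siQKI than in siRBFOX2 cells by -0.17 (adjusted p = 0.00887).

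**Figure D3:**
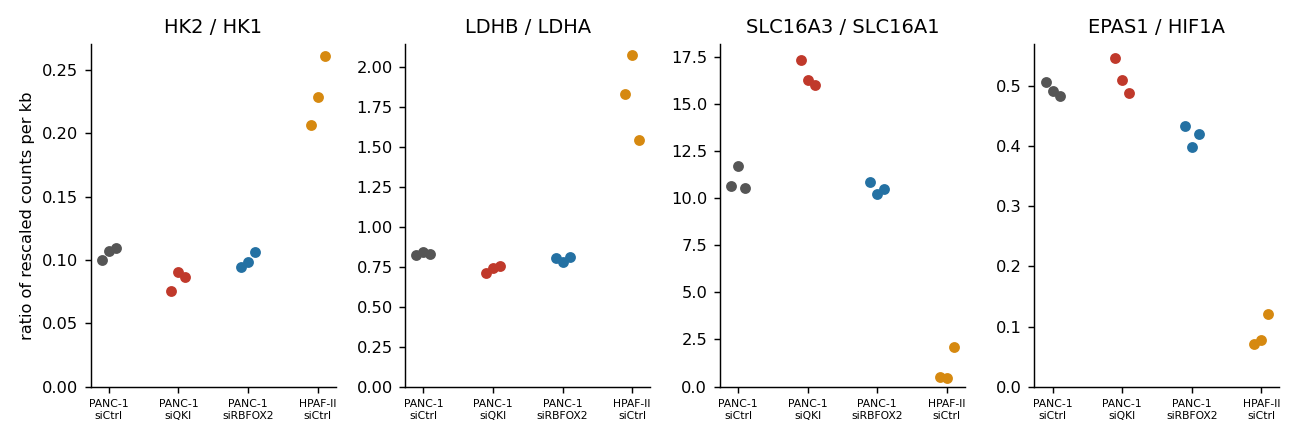
Ratio of rescaled counts per kilobase (vertical axis, starting at 0) for 4 pairs of related genes in each library, 3 libraries per group. The SLC16A3 to SLC16A1 ratio is highest in siQKI (16.0 to 17.3) and lowest in HPAF-II (0.452 to 2.12), and the EPAS1 to HIF1A ratio is lowest in HPAF-II (0.0712 to 0.121). Values of SLC16A3 may hold reads of neighbouring genes.

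Both hypoxia-inducible factor genes among the members were lower in both knockdowns. HIF1A fell from 47289 ± 769 normalized counts (SD, n = 3) to 36467 ± 200 in siQKI and 40737 ± 388 in siRBFOX2 cells. The 3 groups did not overlap, and the log2 fold changes were -0.37 (SE 0.03, adjusted p = 8.06e-07 from limma) and -0.22 (SE 0.03, adjusted p = 2.69e-04). EPAS1 showed the opposite order of the knockdowns, falling from 28356 ± 621 to 22802 ± 1226 in siQKI and 20649 ± 661 in siRBFOX2 cells (-0.32, SE 0.05, adjusted p = 7.11e-05, and -0.46, SE 0.05, adjusted p = 3.66e-06). The direct comparison of siQKI with siRBFOX2 gave -0.16 for HIF1A (adjusted p = 0.00329) and 0.14 for EPAS1 (adjusted p = 0.0372). The calls against siCtrl were kept in all 18 alternatives, while the EPAS1 difference between the knockdowns was lost without siQKI replicate 1 or 2 or siRBFOX2 replicate 2 or 3 (adjusted p up to 0.169 over all alternatives).

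The target genes outside glycolysis did not move together. Of 7, siQKI cells had 2 called higher (ADM and EGLN3) and 3 lower (NDRG1, VEGFA and BNIP3), and siRBFOX2 cells had 2 higher (ADM and VEGFA) and 2 lower (NDRG1 and ANKRD37). That was 71.4% and 57.1% called, against 33.0% and 26.5% of all genes. ADM, a vasodilator peptide hormone, had 66821, 68851 and 67507 normalized counts in siCtrl, 87469, 86271 and 86543 in siQKI and 81676, 74513 and 81940 in siRBFOX2 libraries. Every knockdown library exceeded every siCtrl library. The log2 fold changes were 0.36 (SE 0.04, adjusted p = 6.19e-06 from limma) and 0.23 (SE 0.04, adjusted p = 6.11e-04), kept in all 18 alternatives.

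EGLN3, a prolyl hydroxylase that marks HIF alpha subunits for degradation, had 916, 965 and 618 normalized counts in siCtrl, 1879, 1085 and 1260.3 in siQKI and 674, 937 and 786 in siRBFOX2 libraries. The siQKI libraries lay above all others but were spread widely. The log2 fold change was 0.74 (SE 0.20, adjusted p = 0.0108 from limma) in siQKI and -0.05 (SE 0.20, adjusted p = 0.903) in siRBFOX2 cells, with a difference between them of 0.79 (SE 0.20, adjusted p = 0.0112). Without siQKI replicate 1 the siQKI value was 0.52 (adjusted p = 0.0634), and without siCtrl replicate 3 it was 0.54 (adjusted p = 0.0616). The difference between the knockdowns was likewise lost without siQKI replicate 1 or siRBFOX2 replicate 1 (adjusted p up to 0.193 over all alternatives).

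NDRG1, a stress-responsive gene induced by hypoxia, had 3694, 3866 and 3873 normalized counts in siCtrl, 2692, 2532 and 2351 in siQKI and 2990, 2769 and 3649 in siRBFOX2 libraries. The 3 groups did not overlap, although siRBFOX2 replicate 3 was close to siCtrl. The log2 fold change was -0.60 (SE 0.09, adjusted p = 1.34e-04 from limma) in siQKI and -0.29 (SE 0.09, adjusted p = 0.0297) in siRBFOX2 cells. The siQKI call was kept in all 18 alternatives, and the siRBFOX2 call was lost without siCtrl replicate 2 or 3 or siRBFOX2 replicate 1 or 2, where its value came down to -0.21 (adjusted p = 0.134).

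VEGFA, the angiogenic growth factor, was lower in siQKI and higher in siRBFOX2 cells. It averaged 46843 ± 1554 normalized counts in siCtrl, 41880.0 ± 2421 in siQKI and 53617 ± 3406 in siRBFOX2 libraries. The siQKI change of -0.16 (SE 0.05, adjusted p = 0.0236 from limma) was lost without siCtrl replicate 2 or 3 or siQKI replicate 2 or 3 (adjusted p up to 0.105 among these, and 0.226 over all alternatives), and the siRBFOX2 change of 0.19 (SE 0.05, adjusted p = 0.0110) was lost without siRBFOX2 replicate 3 (0.14, adjusted p = 0.0519). The difference between the knockdowns, -0.36 (SE 0.05, adjusted p = 1.32e-04), was kept in all 18 alternatives. ANKRD37, an ankyrin repeat gene induced by HIF-1, had 1014, 1012 and 959 normalized counts in siCtrl, 795, 858 and 915 in siQKI and 725, 436 and 842 in siRBFOX2 libraries. All knockdown libraries lay below all siCtrl libraries, and siRBFOX2 replicate 2 was the lowest. Its log2 fold change in siRBFOX2 cells was -0.63 (SE 0.19, adjusted p = 0.0221), which became -0.35 (adjusted p = 0.0731) without siRBFOX2 replicate 2 and was also lost without siCtrl replicate 1 or 2 (adjusted p = 0.0584 and 0.0597). In siQKI cells its value was -0.22 (SE 0.19, adjusted p = 0.428). BNIP3, a mitophagy receptor, fell by 0.14 in siQKI cells (adjusted p = 0.0154), a call lost without siCtrl replicate 2 or siQKI replicate 2 (adjusted p up to 0.369 over all alternatives). CA9, the carbonic anhydrase that exports acid and one of the most hypoxia-inducible genes known, stayed at 0 to 103 normalized counts in the 9 PANC-1 libraries and was not called.

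Compared directly, the knockdowns differed in 14 of 40 members (35%, against a background of 21.5% of all genes), 6 higher and 8 lower in siQKI than in siRBFOX2 cells (9.93% and 11.6% of all genes). With the upper quartile of values above 0 the split turned to 8 higher and 5 lower, beside 2819 and 1918 of all genes. SLC2A3, ENO3 and EGLN3 passed 1.5-fold, against 4.33% of all genes. The calls of PFKL, TPI1, ENO3, SLC16A3 and VEGFA were kept in all 18 alternatives. The SLC2A3 difference of -3.18 (SE 0.92, adjusted p = 0.0220) was lost without siQKI replicate 1 or siRBFOX2 replicate 2 or 3 (adjusted p up to 0.161 over all alternatives).

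The rest of the pathway was measured through 63 other genes of glycolysis, pyruvate oxidation and the hypoxia response, of which 57 were tested. The 31 tested hypoxia genes had more calls higher than lower, 15 higher and 3 lower in siQKI and 12 higher and 6 lower in siRBFOX2 cells. The backgrounds were 14.9% and 12.0% of all genes called higher, and 18.1% and 14.5% called lower. Collagen-modifying enzymes were among them. PLOD2, a lysyl hydroxylase, had 15182, 14828 and 14687 normalized counts in siCtrl, 23713, 22528 and 22782 in siQKI and 19218, 19184 and 18896 in siRBFOX2 libraries, without overlap (log2 fold changes 0.63 and 0.36, adjusted p = 2.00e-08 and 1.00e-05 from limma). LOX, the lysyl oxidase that cross-links collagen, rose by 0.88 and 0.89 from a low level of 103 to 178 normalized counts (adjusted p = 0.0231 and 0.0267), calls that were lost without siCtrl replicate 1 or 2, without siQKI replicate 2 or 3 in siQKI cells, and without siRBFOX2 replicate 1 or 2 in siRBFOX2 cells.

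INSIG2, which restrains sterol synthesis, rose by 0.59 and 0.57 (adjusted p = 6.37e-04 and 0.00130). PPFIA4, a liprin, rose in siQKI cells by 1.05 (adjusted p = 0.0265), with overlapping libraries and a call lost without siCtrl replicate 3 or siQKI replicate 1 or 2. In siRBFOX2 cells IGFBP3, which binds insulin-like growth factors, had the largest rise past the threshold among the 57 genes, from 1443 to 1792 in siCtrl to 5365 to 6502 normalized counts (1.81, SE 0.17, adjusted p = 2.17e-06), and STC2, a stanniocalcin, rose by 0.61 (adjusted p = 6.27e-06). The related STC1 fell in both, from 867 to 1229 in siCtrl to 247 to 343 in siQKI and 258 to 519 in siRBFOX2 libraries (-1.86 and -1.43, adjusted p = 2.12e-05 and 3.62e-04). ANGPTL4, an inhibitor of lipoprotein lipase, fell by 0.88 on the log2 scale in siRBFOX2 and by 0.39 in siQKI cells (adjusted p = 4.77e-08 and 6.49e-05). The 26 tested genes of glycolysis and pyruvate oxidation had 3 higher and 5 lower in siQKI and 2 higher and 4 lower in siRBFOX2 cells. That was 30.8% and 23.1% called, against backgrounds of 33.0% and 26.5% of all genes.

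HPAF-II and PANC-1 controls differed in specific isozymes and hypoxia genes. The lines were normalized apart by the authors, so values were rescaled to a total of 1000000 per library and described without a test. The members together held 1.562%, 1.372% and 1.726% of HPAF-II replicates 1, 2 and 3, against 1.635% to 1.673% of PANC-1 siCtrl libraries. Replicates 1 and 2 thus lay below every PANC-1 siCtrl library and replicate 3 above. GAPDH by itself held 0.4341%, 0.3495% and 0.6025% of these HPAF-II libraries. Of the 41, 16 were at least 2-fold apart, 10 higher and 6 lower in HPAF-II, or 39.0% beside 52.4% of all 24673 genes compared (27.2% higher, 25.2% lower). That background depends on the pseudocount of 0.01. With a pseudocount of 1, 10 members were higher and 4 lower, beside 2733 and 2692 of all genes. The members' share then lay above that of all genes, the reverse of the order with 0.01. PFKL, PFKM, PFKFB3, PGAM1, ENO1 and VEGFA lay just under 2-fold in either direction (1.97 to 1.998). At least 4-fold apart were 8 of the 41 members (background 30.6%, also with the pseudocount of 0.01). In 36 the 3 libraries of each line did not overlap (background 63.7%). The split depends on scaling. Rescaling by the upper quartile moved the median log2 ratio of all genes from 0.08 to -0.24 and gave 9 members higher and 11 lower, with TPI1, PFKFB2, GAPDH and PGD changing sign. HPAF-II replicate 3 stood apart from the other HPAF-II libraries for several members, among them SLC2A1, SLC16A3, TPI1, GAPDH and HIF1A.

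**Figure D4:**
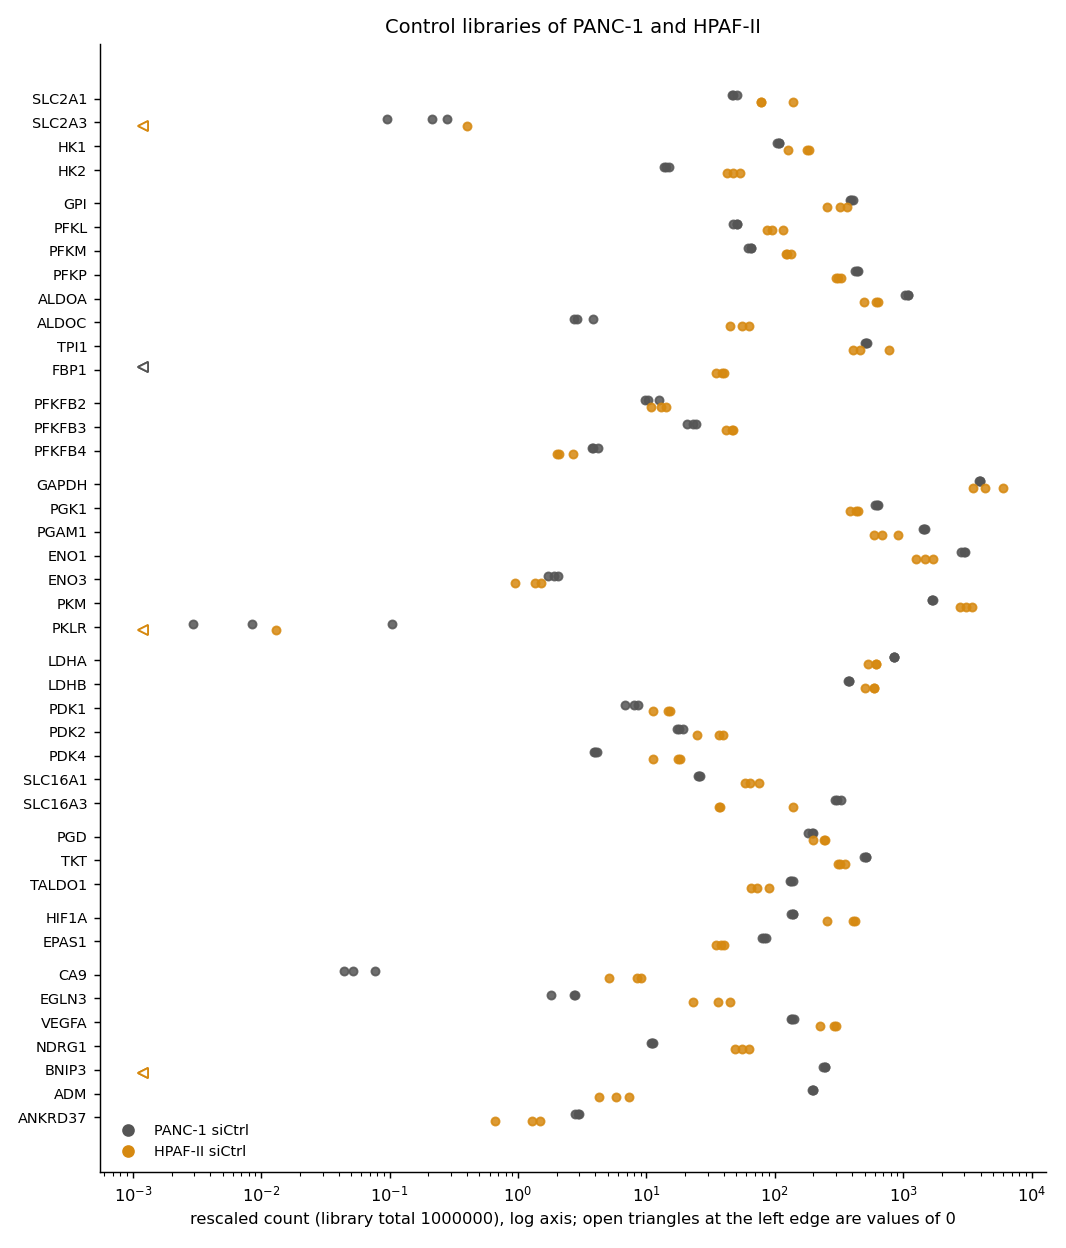
Rescaled counts (horizontal log axis, library total 1000000) of the 41 members in the 3 PANC-1 siCtrl (grey) and 3 HPAF-II siCtrl (orange) libraries, with open triangles at the left edge for values of 0. ALDOC, FBP1, CA9, EGLN3 and NDRG1 lie far to the right in HPAF-II, and BNIP3, ADM and SLC16A3 in PANC-1.

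ALDOC, the brain-type aldolase, had rescaled counts of 62.6, 55.8 and 44.9 in HPAF-II and 2.88, 3.81 and 2.71 in PANC-1, a 17.3-fold difference of means. FBP1 had 39.1, 34.7 and 40.0 in HPAF-II and was listed at 0 in PANC-1. HK2 was 3.34-fold higher in HPAF-II, and PDK4, a pyruvate dehydrogenase kinase induced by fasting, was 3.91-fold higher. SLC2A1 was 2.02-fold higher, and 1.61-fold without HPAF-II replicate 3. Among the abundant enzymes, PKM was higher in HPAF-II (3083 ± 331 against 1691 ± 22.7 rescaled counts, SD, n = 3), while ENO1 (1490 ± 225 against 2943 ± 89.8) and PGAM1 (729 ± 158 against 1452 ± 31.2) were lower, each under 2-fold. The ratio of LDHB to LDHA per kilobase was 1.54 to 2.08 in HPAF-II, against 0.825 to 0.845 in PANC-1 siCtrl libraries. Before division by exon length, LDHB and LDHA averaged 563 and 585 rescaled counts in HPAF-II and 378 and 848 in PANC-1. Which gene is higher in HPAF-II thus depends on the lengths used.

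The lactate transporters differed in the same pair. SLC16A3 had rescaled counts of 37.0, 37.7 and 137.3 in HPAF-II and 296, 330.2 and 304 in PANC-1. All HPAF-II libraries lay below all PANC-1 libraries, but replicate 3 stood apart, so the mean was 4.39-fold lower with it, or 0.228 of PANC-1, and 0.121 of PANC-1 without it. SLC16A1 was 2.58-fold higher in HPAF-II, and the ratio of SLC16A3 to SLC16A1 per kilobase was 0.452 to 2.12. Here too the SLC16A3 values may hold reads of neighbouring genes.

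The hypoxia genes split between the lines. HIF1A was 2.64-fold higher in HPAF-II (362 ± 91.7 against 137 ± 3.16 rescaled counts, SD, n = 3) and EPAS1 2.19-fold lower (37.7 ± 2.67 against 82.4 ± 2.96). CA9 had 9.11, 5.09 and 8.47 rescaled counts in HPAF-II and 0.0763, 0.0517 and 0.0437 in PANC-1, a 113-fold difference of means that rests on very few PANC-1 counts. EGLN3 had 35.9, 23.0 and 44.6 in HPAF-II and 2.704, 2.77 and 1.79 in PANC-1, and NDRG1 63.4, 49.4 and 55.0 against 10.9, 11.1 and 11.2. These were 14.2-fold and 5.05-fold differences, with no overlap of libraries. In the other direction, ADM had 5.80, 4.24 and 7.26 rescaled counts in HPAF-II and 197.2, 197.7 and 195.5 in PANC-1, a 34.1-fold difference. BNIP3, at 246.7, 245.2 and 239.3 in PANC-1, was listed at 0 in all 3 HPAF-II libraries. ANKRD37 was 2.52-fold lower in HPAF-II, and VEGFA was 1.998-fold higher, just inside 2-fold.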

How the data were processed

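The 12 libraries were made from polyA-selected RNA. According to the submitters' processing notes, the reads were processed with STAR 2.7.5a, Picard, SAMtools and DESeq2 on hg38. The deposited signal values are gene counts per FAST DB gene that the authors divided by DESeq2 size factors, for the 9 PANC-1 libraries together and the 3 HPAF-II libraries apart. Every value was a whole multiple of a library's step (within 0.1), 82.1% to 84.8% of small values were multiples of 3 steps, and totals were 226697015 to 376192091 steps, so a value cannot be turned into fragments and precision was taken from the replicates (median SE of a log2 fold change 0.14). Strand is not given in the sources used here, so genes that overlap others are uncertain.

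A single linear model over the 9 PANC-1 libraries was fitted with limma 3.58.1 (R 4.3.3), with moderated variances that follow mean expression (two-sided, Benjamini-Hochberg over 22544 genes with a mean of at least 10, threshold 0.05) on log2(normalized count + 1). The script was tested on simulated data for siQKI against siCtrl, with 22544 genes of which 200 changed 2-fold, and recovered 112, all in the right direction, beside 6 false calls. HPAF-II and PANC-1 values were rescaled to 1000000 per library over both tables, with a pseudocount of 0.01 and without a test, for genes with a mean of at least 10 in either line. Levels per kilobase used the union of GENCODE 29 exons. Tables were made in Python 3.11.15 with pandas 2.3.3.

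The members, lists and tests were chosen with earlier results of these data known. Members are given by library where they passed the threshold and 1.5-fold in a PANC-1 comparison or were 4-fold apart between lines. Other pathway genes are named past the threshold and 1.5-fold with a mean of at least 50, at most 4 in each direction and knockdown. Alternatives were pseudocounts of 0.1 and 10, no filter or a mean of at least 50, upper-quartile scaling, a fit to just the pair of groups at hand, a replicate block, variances without the trend, a fold of at least 1.5, and each library left out. For the comparison of the lines, a pseudocount of 1 was also used. The condition of HPAF-II was taken from the labels.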

Additional observations from a re-analysis of the deposited data

How the results depend on the processing

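Of the calls of members, 11 of 22 in siQKI, 7 of 16 in siRBFOX2 and 5 of 14 between the knockdowns were kept under each of 18 alternatives (17 for SLC2A3) that did not raise the fold required, and 0 of 52 changed direction. Without a filter on low values, 14, 7 and 8 members were called in siQKI, in siRBFOX2 and between the knockdowns, 13 other pathway genes in siRBFOX2, and 3836 and 3128 of all genes in siRBFOX2 and between the knockdowns. Without the mean-variance trend the members were 13, 7 and 8 and the other pathway genes in siRBFOX2 were 15. Past 1.5-fold the members were 5, 1 and 3, the other pathway genes 6 and 5, and all genes 2035, 1288 and 977. With 1 library left out, members ran from 16 to 24, 9 to 15 and 9 to 14, with siRBFOX2 at 10 without siCtrl replicate 3 and 9 without siRBFOX2 replicate 2, and the difference at 9 without siQKI replicate 1. Other pathway genes then ran from 20 to 27 and 16 to 25, all genes from 6217 to 7674, 4862 to 5956 and 3903 to 4793, and members 2-fold apart between lines from 17 to 19. The causes of these shifts were not tested.

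Sign changes were limited to values that had passed no threshold. With the upper quartile taken over values above 0, an alternative chosen after seeing the data, siQKI values became 0.045 for PFKL, 0.054 for PFKM, 0.0304 for PGAM1 and 0.053 for ENO1, and siRBFOX2 values 0.0029 for ENO1 and 0.0273 for LDHA. Upper-quartile scaling gave -0.0014 for PGD and a pseudocount of 10 gave 0.0458 for CA9 in siRBFOX2. With 1 library left out, siRBFOX2 values ran from -0.0058 to 0.0514 for PFKM, -0.0021 to 0.0634 for PGK1, -0.0723 to 0.0049 for ENO1, -0.0409 to 0.0241 for LDHA, -0.0256 to 0.0208 for PGD, -1.63 to 1.11 for CA9 and -0.25 to 0.0738 for EGLN3.

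Same-numbered libraries of the PANC-1 groups did not deviate together (r from -0.0325 to 0.0235 over 9 pairs, against -0.0333 to 0.0384 over 18 others, and 3 of 9 libraries correlated best with their own number), so the numbers were not used to pair samples. A replicate block gave 20, 15 and 14 members and 7336, 5891 and 4758 genes. The edgeR alternatives were not run, because whole reads could not be recovered from the values. In PANC-1, genes with few counts such as SLC2A3, CA9 and FBP1 had wide standard errors (0.92, 1.24 and 2.34 for siQKI against siCtrl). The part of depth in this was not tested.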
